A study of Homo sapiens with 12 samples.

Results

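Cytosolic ribosomal protein genes encode the proteins of the 40S and 60S ribosomal subunits. They were taken here as the genes whose symbol follows the RPL or RPS naming pattern for these proteins, pseudogenes and kinases excluded, with at least 240 counts summed over the 12 libraries. The pattern matched 81 of 60483 genes in the count table, and 78 of them passed the minimum, 32 of the small subunit and 46 of the large one. The members just inside the minimum were RPS26 with 1993 counts in all, RPL17 with 2720 and RPL36A with 3006. The matches just outside it were RPL3L with 142 counts, RPL39L with 78 and RPL10L with 3. All 78 members also passed the filter on low counts used for testing, and together they held 5298408 of 130494658 counts, or 4.06%.

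The cells were HUDEP-2, an immortalized human erythroid progenitor line made from cord blood. Total RNA was sequenced in 4 groups of 3 libraries: MBD2 knockout after differentiation, control after differentiation, MBD2 knockout before differentiation, and control before differentiation. MBD2 binds methylated DNA and recruits the NuRD chromatin remodeling complex, and the series asked how its loss affects expression in human erythroid cells. Control cells carried a scrambled guide RNA (sgSCR) and are labelled WT. Cells before differentiation are labelled early basophilic erythroblasts and were kept in SFEM with SCF, EPO, dexamethasone, doxycycline and glutamine. Cells after differentiation are labelled late basophilic erythroblasts and were grown in IMDM with EPO, doxycycline, insulin, heparin, holo-transferrin and human AB serum. Doxycycline and EPO were therefore present in all 4 groups, and the medium changed with the stage, so stage and medium cannot be told apart. The labels give both 3 days and 5 days of differentiation. They do not say whether the replicates were separate cultures or whether the knockout cells were 1 clone, so each p-value covers the spread of the libraries at hand, which may be technical.

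A ribosome holds 1 copy of nearly every ribosomal protein, and a shortage of a single one can stall the assembly of its subunit. Most mRNAs of these genes begin with a run of pyrimidines, the 5′ terminal oligopyrimidine (TOP) motif, which places their translation under control of the mTOR pathway through the protein LARP1. Erythroid precursors depend strongly on ribosome supply for globin synthesis. Loss of 1 copy of several ribosomal protein genes causes Diamond-Blackfan anemia, a failure of red cell production, and loss of RPS14 contributes to the anemia of the 5q- syndrome. Free RPL5, RPL11 and RPL23 can bind MDM2, the ubiquitin ligase that degrades p53.

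The start of transcription is the feature for which these genes are best known, so it is shown for 10 of the members on which the results turn. RPL23, RPL8 and RPS2, described later, have no window here. RefSeq promoter sequences (GRCh38.p14) were matched by symbol for 63 of the 78 members. Each window below holds 60 bases before the listed start and the first 15 bases of the transcript, on the strand of the gene. Capitals mark the unbroken run of C and T that holds the start base, where it is at least 5 bases long, and any match to CCGGAAG, the core of an ETS factor motif, on either strand.
RPS27 chr1:153990702-153990776 (+): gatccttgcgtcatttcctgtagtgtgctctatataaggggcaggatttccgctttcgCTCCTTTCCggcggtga
RPS27L chr15:63157463-63157537 (-): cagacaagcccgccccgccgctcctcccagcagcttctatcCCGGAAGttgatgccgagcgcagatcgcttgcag
RPL13A chr19:49487548-49487622 (+): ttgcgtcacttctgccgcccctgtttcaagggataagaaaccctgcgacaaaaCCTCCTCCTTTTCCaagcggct
RPL36 chr19:5690235-5690309 (+): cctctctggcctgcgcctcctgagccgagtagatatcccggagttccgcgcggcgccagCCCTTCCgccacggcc
RPL10 chrX:154398317-154398391 (+): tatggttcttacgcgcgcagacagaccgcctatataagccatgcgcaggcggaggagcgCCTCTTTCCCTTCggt
RPL3 chr22:39319609-39319683 (-): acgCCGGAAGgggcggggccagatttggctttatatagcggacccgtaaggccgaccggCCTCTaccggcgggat
RPSA chr3:39406660-39406734 (+): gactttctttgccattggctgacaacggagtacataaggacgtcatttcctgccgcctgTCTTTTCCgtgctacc
RPLP0 chr12:120201097-120201171 (-): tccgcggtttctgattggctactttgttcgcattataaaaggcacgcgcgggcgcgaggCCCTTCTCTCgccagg
RPL29 chr3:51995881-51995955 (-): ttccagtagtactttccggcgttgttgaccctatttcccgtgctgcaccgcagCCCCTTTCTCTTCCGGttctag
RPL17 chr18:49492451-49492525 (-): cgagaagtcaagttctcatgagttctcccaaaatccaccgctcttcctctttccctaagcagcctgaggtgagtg

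Of the 63 members with a sequence, 49 (77.8%) had a listed start inside such a run, against 3258 of 27305 symbols in the whole table (11.9%). A gene with several listed starts has more chances to match. Among genes with 1 start the shares were 42 of 53 members (79.2%) and 9.95% of all genes. Of the windows shown, those of RPS27L and RPL17 had no run at the listed start. The window of RPL17 does hold a run of C and T, but it ends just before the listed start. CCGGAAG was present on either strand of the 300 bases around the start (250 before it and 50 after it) in 23 members (36.5%), against 12.2% of all symbols. TATAAA, the core of the TATA box, was present in the same stretch in 5 members (7.94%), against 13.99% of all symbols. A match here is a match of letters and not a site.

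Total counts per library were 7667997 to 14047498. MBD2 ran from 14.6 to 16.8 CPM (counts scaled to the library's total) in knockout against 58.2 to 61.4 CPM in control cells after differentiation, and from 19.8 to 24.5 CPM in knockout against 75.3 to 78.7 CPM in control cells before it. Knockout libraries after differentiation held 1.68% to 2.74% of counts on ribosomal RNA genes, against 0.56% to 1.05% in control libraries after differentiation. Erythroid markers, among them KLF1, GATA1, TFRC, ALAS2, EPOR, HBB and AHSP, were present in all groups. The summed level of the erythroid list was 14584 to 16728 CPM in knockout and 7950 to 8753 CPM in control cells after differentiation, and 6867 to 8741 CPM in knockout and 6717 to 7708 CPM in control cells before it. Markers of mast cells and basophils summed to 9.25 to 12.4 CPM in knockout and 44.8 to 50.7 CPM in control cells after differentiation, and to 36.4 to 43.4 CPM in knockout and 120 to 141 CPM in control cells before it. Neutrophil and monocyte markers summed to 2.91 to 4.36 CPM in knockout and 2.84 to 4.03 CPM in control cells after differentiation, and to 17.25 to 22.002 CPM in knockout and 6.57 to 8.13 CPM in control cells before it, where 4 of 4 tested were called higher in knockout cells. Megakaryocyte markers, with PPBP at 0 and nearly all of the counts on ITGA2B, summed to 11.4 to 11.7 CPM in knockout and 11.3 to 13.7 CPM in control cells after differentiation, and to 36.1 to 56.7 CPM in knockout and 26.2 to 29.8 CPM in control cells before it. ITGA2B was called higher in knockout cells before differentiation and lower after it than before it in both genotypes. In every library the lymphoid markers summed to at most 0.63 CPM with CD3E at 0, and the stromal markers to at most 1.74 CPM. The part of these differences in the results below was not tested.

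The share of all counts that fell on the ribosomal protein genes was close in the 4 groups. It was 3.66%, 3.82% and 3.79% in knockout libraries after differentiation, against 3.81%, 4.20% and 3.65% in control libraries after differentiation. Before differentiation it was 4.45%, 4.50% and 4.09% in knockout libraries, against 4.16%, 4.24% and 3.96% in control libraries. Knockout and control libraries overlapped at both stages. In the knockout cells each library after differentiation lay below each library before it, while in the control cells 1 library after differentiation, replicate 2, lay among those before it. In RNA from whole cultures, fewer cells of a type and less RNA per cell cannot be told apart.

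**Figure D1:**
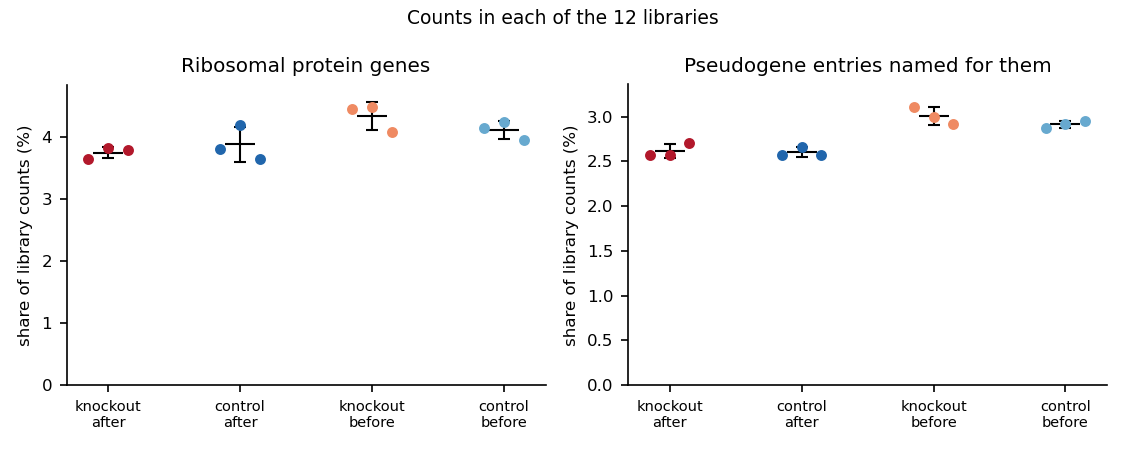
Share of each library's counts (percent, y axes) on the 78 ribosomal protein genes (left) and on the pseudogene entries named for them (right), in the 4 groups; points are libraries, and bars are the mean ± SD over 3 libraries. The knockout libraries after differentiation lie between 3.66% and 3.82% on the left, below the knockout libraries before differentiation, which lie between 4.09% and 4.50%.

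Levels differed far more between members than between groups. Levels are CPM scaled with TMM factors, and the median member stood at 454 CPM in knockout and 416 CPM in control cells after differentiation, and at 453 CPM in knockout and 436 CPM in control cells before it. Per kilobase of annotated exon the highest member was RPS12, with 2059.8 CPM per kb in knockout and 2092 CPM per kb in control cells after differentiation, and 1885 and 1673 CPM per kb in knockout and control cells before it. RPS6, the small subunit protein phosphorylated by S6 kinase, had 726, 634, 759 and 742 CPM per kb in knockout after, control after, knockout before and control before differentiation. The lowest members per kilobase in control cells before differentiation were RPS27L, RPS26 and RPL36A. RPS27L had 6.58, 5.71, 3.52 and 3.30 CPM per kb and RPS26 had 8.05, 8.84, 7.95 and 6.67 CPM per kb in the same order of groups. RPL17 was also low, with 5.57, 8.50, 7.27 and 11.0 CPM per kb. The coefficient of variation between libraries of a group had a median over the members of 5.59% in knockout and 9.78% in control cells after differentiation, and of 8.32% in knockout and 8.03% in control cells before it.

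The level assigned to a member depends on its pseudogenes. The table held 1144 pseudogene entries named for cytosolic ribosomal protein genes, 886 of them with counts, and they carried 3651112 counts, or 68.9 for every 100 on the members. For 26 members the pseudogenes carried more counts than the gene itself, with RPL7 (2995 per 100), RPL21 (2847) and RPS28 (1672) far above it. For 29 members they carried fewer than 10 per 100, among them RPL8, RPL36, RPS27L and RPS27. The low levels of RPL7, RPL21 and RPS28 are therefore levels of the reads given to the gene entry only. Exons of 49 members overlapped another gene, over 20% of the exon bases in 7 of them, and 28 members hold a total of 60 small nucleolar RNA (snoRNA) genes. The kit keeps strand, but counting used no strand option per the file header, so reads of a member and of an antisense gene over the same bases cannot be told apart.

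Changes of the ribosomal protein genes were small. After differentiation, 14 of 78 members were higher and 2 lower in knockout than in control cells at an adjusted p under 0.05 (edgeR's quasi-likelihood test, Benjamini-Hochberg over 17175 genes), against 16.7% of all genes tested called higher, 16.5% called lower and 33.2% called either way. Before differentiation, 4 members were higher and 1 lower in knockout than in control cells, against 9.18% and 8.33% of all genes (17.5% either way). From before to after differentiation in control cells, 11 members rose and 15 fell, against 21.4% and 22.4% of all genes (43.9% either way). In knockout cells 8 rose and 20 fell, against 27.7% of all genes in each direction (55.5% either way). The share called higher in knockout cells after differentiation was close to that of all genes. The median size of the log2 fold change over the members was 0.13, 0.10, 0.15 and 0.14 in these 4 comparisons, against 0.27, 0.19, 0.33 and 0.46 over all genes. Between 72 and 76 members changed by less than 0.5 on the log2 scale in each of them.

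The side on which the members fell changed with the scaling of the libraries. With TMM factors their median log2 fold change between knockout and control was 0.07 after differentiation (all genes -0.01), but with library sizes alone it was -0.088 (all genes -0.17), with 0 members called higher and 14 lower. The 2 scalings put 50.4% and 27.4% of all calls in that comparison on the higher side. The members stood 0.08 above the median of all genes under both scalings. Before differentiation the median was 0.07 with TMM factors and 0.05 with library sizes alone, with 0 members called higher and 1 lower under the second scaling. For differentiation in knockout cells the median was -0.02 with TMM factors (all genes 0.03) and -0.20 with library sizes alone (all genes -0.16), and 50.0% and 34.9% of all calls were on the higher side. With library sizes alone 4 members rose and 38 fell in knockout cells, and 8 rose and 20 fell in control cells. Of all 17175 genes tested, 3387 rose and 6319 fell in knockout cells under that scaling, and 3154 rose and 4284 fell in control cells.

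**Figure D2:**
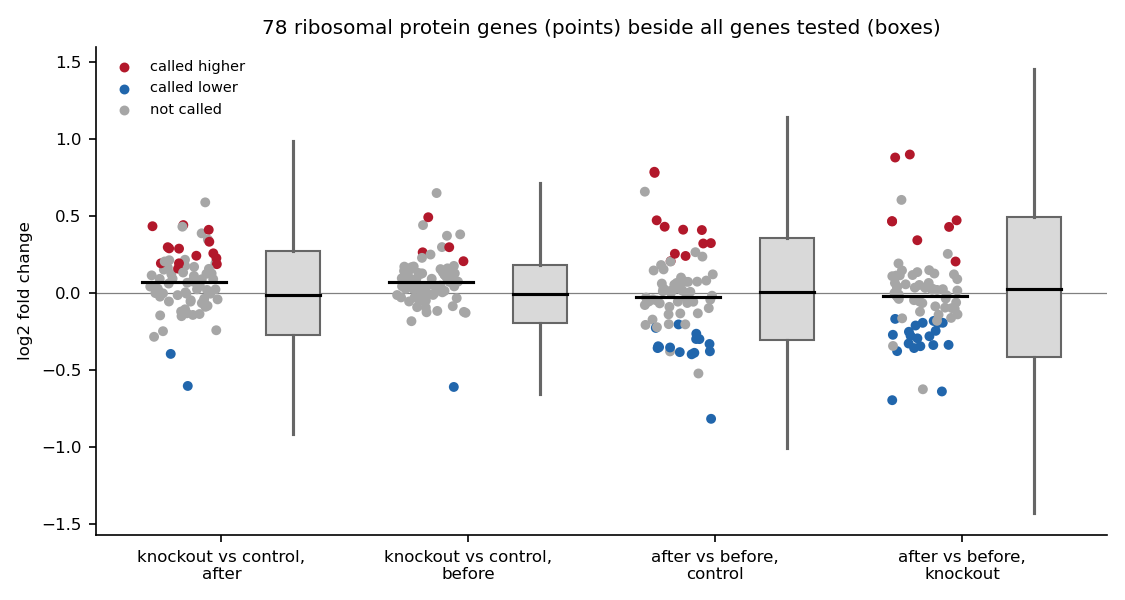
Log2 fold change (y axis, TMM scaling) of the 78 ribosomal protein genes, one point per gene coloured by its call at an adjusted p under 0.05, with a line at their median, beside a box of all 17175 genes tested (box 25th to 75th percentile, line median, whiskers 5th to 95th percentile), for 4 comparisons. The median size of the change is 0.13, 0.10, 0.15 and 0.14 over the points, against 0.27, 0.19, 0.33 and 0.46 over all genes. The median of the points is 0.07 in both knockout comparisons and -0.02 in both differentiation comparisons. With library sizes alone these last medians are -0.088, 0.05, -0.07 and -0.20.

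The call that held at both stages and without any 1 library was RPL17, a protein of the 60S subunit that lines the tunnel through which the new peptide leaves. It had 13.2, 15.3 and 13.5 CPM in knockout libraries after differentiation, against 20.3, 20.2 and 23.6 CPM in control libraries. Before differentiation it had 16.3, 16.8 and 21.7 CPM in knockout libraries, against 28.4, 27.4 and 27.5 CPM in control libraries. Knockout and control libraries did not overlap at either stage. RPL17 was lower in knockout cells by a log2 fold change of -0.60 ± 0.12 (SE; 1.52-fold lower, adjusted p = 0.00065) after differentiation and of -0.61 ± 0.11 (adjusted p = 0.0005) before it, and the 2 comparisons share no library. With library sizes alone the values were -0.76 and -0.63, and with the counts of its pseudogenes added they were -0.65 (adjusted p = 0.01) and -0.51 (adjusted p = 0.046).

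RPL17 lies at chr18:49488453-49492565 (hg38, minus strand), on the same chromosome as MBD2. The 265 tested genes of chromosome 18 had a median log2 fold change between knockout and control of -0.38 after differentiation, with 43.4% of them called lower. Before differentiation their median was -0.48 and 56.6% were called lower. The part of the chromosome in the result for RPL17 was not tested. RPL17 shares 38.1% of its exon bases with other entries, among them the readthrough gene RPL17-C18orf32, and its pseudogenes carried 326 counts for every 100 of its own. It also fell during differentiation, with a log2 fold change of -0.38 ± 0.11 in control cells (adjusted p = 0.0083) and -0.38 ± 0.12 in knockout cells (adjusted p = 0.014), but the adjusted p in knockout cells was 0.115 without knockout replicate 3 before differentiation and 0.0591 without knockout replicate 1 after it. With pseudogene counts added, neither of these was called (adjusted p = 0.4 and 0.13).

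RPL23, a 60S protein on the face that joins the small subunit, was the member whose knockout effect differed between the stages. After differentiation it had 481, 476 and 441 CPM in knockout libraries, against 599, 659.6 and 578 CPM in control libraries. Before differentiation it had 786, 668 and 721 CPM in knockout libraries, against 814, 759 and 684 CPM in control libraries. The groups were apart after differentiation and overlapped before it. RPL23 was lower in knockout cells after differentiation (-0.39 ± 0.08, 1.31-fold lower, adjusted p = 0.00038), while before it the value was -0.05 ± 0.08 (adjusted p = 0.7). It lies at chr17:38847865-38853843 (minus strand) and its pseudogenes carried 12.6 counts for every 100 of its own.

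The difference between the knockout effects of RPL23 at the 2 stages was -0.34 ± 0.11 on the log2 scale (adjusted p = 0.039), the only such call among the members, against 6.95% of all genes called lower and 6.59% called higher (13.5% either way) in that test. It was lost without any 1 of 9 libraries. The adjusted p was then 0.0896 and 0.123 without control replicates 2 and 3 before differentiation, and 0.111 and 0.0718 without knockout replicates 1 and 3 before it. It was 0.0777 and 0.118 without control replicates 1 and 2 after differentiation, and 0.0608, 0.0653 and 0.0884 without knockout replicates 1, 2 and 3 after it. Over the members the median difference between the stages was 0.00, and with library sizes alone it was -0.13 (all genes -0.15), where 23.3% of all calls were on the higher side against 48.7% with TMM factors.

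Among the members higher in knockout cells after differentiation with TMM scaling, RPL3 had the largest change (0 of the 14 were called with library sizes alone). RPL3 sits next to the peptidyl transferase center of the 60S subunit. It had 1268, 1368 and 1388 CPM in knockout libraries after differentiation, against 888, 1092 and 982 CPM in control libraries. Every knockout library lay above every control library, by a log2 fold change of 0.44 ± 0.11 (1.36-fold, adjusted p = 0.0042; 0.29 with library sizes alone). Before differentiation it had 917, 1141 and 852 CPM in knockout libraries, against 689.6, 818 and 857 CPM in control libraries, and the groups overlapped. That difference was 0.30 ± 0.11 and missed the threshold (adjusted p = 0.067), though it passed without control replicate 3 (adjusted p = 0.0428) or knockout replicate 3 (adjusted p = 0.0226) of that stage. The difference between the 2 effects was 0.14 ± 0.15 (adjusted p = 0.6).

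RPL29, a 60S protein with few pseudogene counts (14.5 per 100), had 559, 563 and 608 CPM in knockout libraries after differentiation, against 452, 482 and 479 CPM in control libraries. The groups did not overlap (0.29 ± 0.06, adjusted p = 0.00069). RPL13A, which outside the ribosome takes part in silencing inflammatory mRNAs, had 621, 609.8 and 564 CPM in knockout and 488, 532 and 449 CPM in control libraries after differentiation (0.29 ± 0.07, adjusted p = 0.0037). RPSA, the small subunit protein also known as the laminin receptor, had 238, 242 and 239 CPM in knockout and 190.3, 223 and 187 CPM in control libraries (0.26 ± 0.07, adjusted p = 0.0059). None of these calls, nor that of RPL3, was lost when any 1 library was left out.

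RPL8 and RPS2 were called higher in knockout cells at both stages with TMM scaling, and at neither stage with library sizes alone. RPL8, a core 60S protein beside the catalytic center, had 882, 947 and 991 CPM in knockout and 641, 781 and 697 CPM in control libraries after differentiation. Before differentiation it had 866, 1171 and 811 CPM in knockout and 569.7, 721 and 732 CPM in control libraries. The groups were apart at both stages, and knockout replicate 2 before differentiation stood well above its other two replicates. The changes were 0.41 ± 0.14 after differentiation (adjusted p = 0.039) and 0.49 ± 0.14 before it (adjusted p = 0.029). The call before differentiation was lost without that replicate (0.31, adjusted p = 0.054) or without control replicate 1 (0.38, adjusted p = 0.085). The call after differentiation was lost without control replicate 1 (adjusted p = 0.107) or 3 (adjusted p = 0.0967), or without knockout replicate 1, 2 or 3 (adjusted p = 0.0526, 0.0914 and 0.127).

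RPS2, at the mRNA entry of the small subunit, had 1422, 1568 and 1464 CPM in knockout and 1122, 1381 and 1030.0 CPM in control libraries after differentiation. Before differentiation it had 1357, 1543 and 1226 CPM in knockout and 1052, 1195 and 1107 CPM in control libraries. The groups did not overlap at either stage. Its changes were 0.33 ± 0.10 after differentiation (adjusted p = 0.015) and 0.30 ± 0.10 before it (adjusted p = 0.047). After differentiation the call was lost without control replicate 1 or 3 or knockout replicate 2 (adjusted p = 0.0609, 0.0757 and 0.0666), and before differentiation without any 1 of 9 libraries, namely every library before differentiation except knockout replicate 3, every knockout library after it, and control replicate 1 after it (adjusted p up to 0.22, without knockout replicate 2 before differentiation). RPS2 shares 25.6% of its exon bases with other entries, and its pseudogenes carried 128 counts for every 100 of its own. With those added the changes were 0.45 and 0.26 (adjusted p = 0.00056 and 0.049).

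RPS16, a small subunit protein, had the largest positive log2 fold change of the 78 members between knockout and control at both stages, and was not called. It had 397, 469 and 485 CPM in knockout and 253, 336 and 308 CPM in control libraries after differentiation, and 316, 576 and 349 CPM in knockout and 172, 292 and 326 CPM in control libraries before it. Its replicates were among the most scattered of all members, with a coefficient of variation of 34.2% in knockout cells before differentiation. The log2 fold changes were 0.59 ± 0.29 after differentiation (adjusted p = 0.16) and 0.65 ± 0.29 before it (adjusted p = 0.18). RPS16 was singled out after its values were seen, as RPL28 was. RPL28, with 223, 246 and 298 CPM in knockout and 168, 228 and 189 CPM in control libraries after differentiation, had the same wide scatter (0.39 ± 0.26, adjusted p = 0.31).

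**Figure D3:**
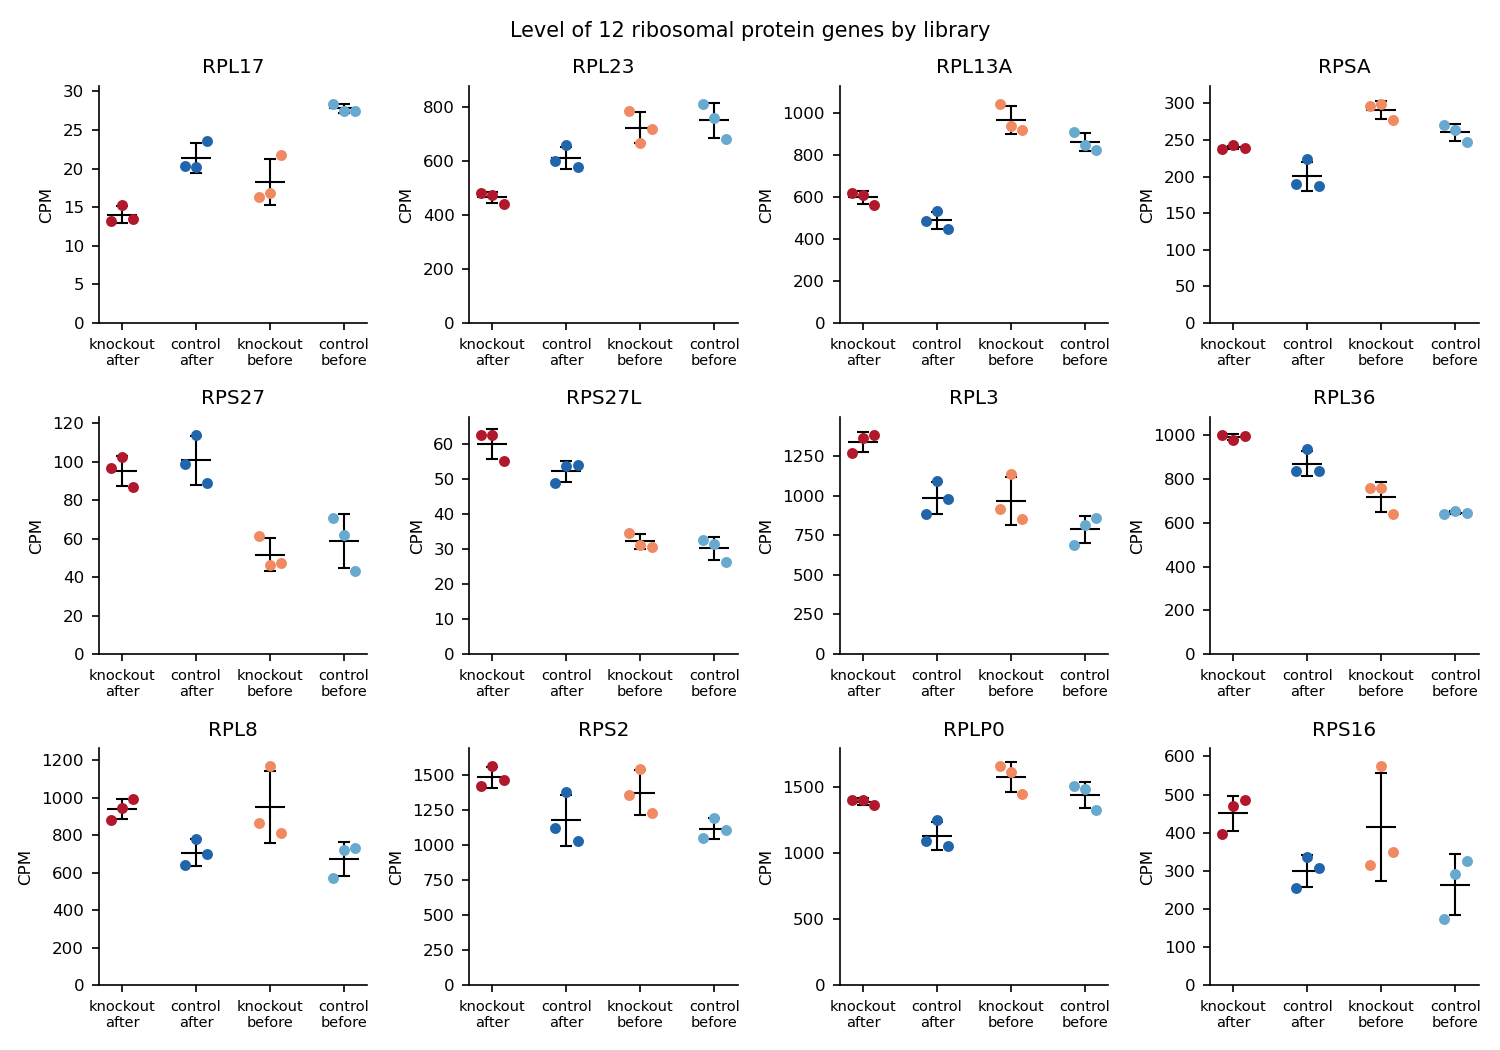
Level of 12 ribosomal protein genes (CPM with TMM scaling, y axes from 0) in each library, with the mean ± SD over 3 libraries, in knockout and control cells after and before differentiation. RPL17 is lower in knockout than in control libraries at both stages, RPL13A and RPL23 are lower and RPS27 and RPS27L higher after differentiation than before it in both genotypes, and RPS16 and RPL8 show knockout replicate 2 before differentiation above its other two replicates.

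These counts depended on single libraries. The 14 members higher in knockout cells after differentiation were 5 without control replicate 1, 7 without control replicate 3, and 6, 9 and 9 without knockout replicates 1, 2 and 3 of that stage. The 4 members higher before differentiation were 0 and 1 without control replicates 1 and 2 of that stage and 2, 0 and 7 without knockout replicates 1, 2 and 3. They were 2 without control replicate 1 after differentiation and 2 without either of knockout replicates 1 and 2 after it. Of the 16 calls after differentiation, 7 held without any 1 library, and of the 5 before it only that of RPL17 did. The remaining members called higher after differentiation were RPL15, RPL35A, RPL36, RPL41, RPLP0, RPS3, RPS6 and RPS9, by 0.16 to 0.43 with TMM scaling.

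During differentiation the strongest rises were those of RPS27 and its paralog RPS27L, which encode closely related small subunit proteins. RPS27L is known as a target of p53. RPS27 had 96.6, 102 and 86.7 CPM in knockout libraries after differentiation, against 61.4, 46.1 and 47.4 CPM before it. In control libraries it had 99, 114 and 88.9 CPM after differentiation, against 70.9, 61.8 and 43.2 CPM before it. Libraries of the 2 stages did not overlap in either genotype. The log2 fold changes were 0.88 ± 0.18 in knockout cells (1.84-fold, adjusted p = 0.0017) and 0.78 ± 0.18 in control cells (1.72-fold, adjusted p = 0.0045).

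RPS27L had 62.4, 62.6 and 55.1 CPM in knockout libraries after differentiation, against 34.6, 31.3 and 30.7 CPM before it, and 48.7, 53.7 and 54 CPM in control libraries after differentiation, against 32.6, 31.5 and 26.3 CPM before it. All libraries after differentiation lay above all libraries before it. The changes were 0.90 ± 0.09 in knockout cells (1.87-fold, adjusted p = 4.6e-08) and 0.79 ± 0.09 in control cells (1.73-fold, adjusted p = 5.4e-07). Pseudogene entries carried 2.5 counts per 100 for RPS27 and 0 for RPS27L, and both rises remained with library sizes alone (0.70 and 0.73 for RPS27, 0.72 and 0.74 for RPS27L, in knockout and control cells). However, 60% of the 100-base stretches of the RPS27 coding transcript also occur in transcripts of 6 other genes, against 0% for RPS27L. The part of such shared sequence in the counts of RPS27 was not tested. The 2 genes start differently, RPS27 inside a pyrimidine run and RPS27L at no such run, as in the windows above. In the knockout comparisons neither gene was called at either stage.

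RPL36, RPL10 and RPL3, all of the 60S subunit, also rose in both genotypes with TMM scaling. RPL36 had 1003, 977 and 997 CPM in knockout libraries after differentiation, against 758, 757 and 641 CPM before it, and 836, 937 and 838 CPM in control libraries after it, against 640.4, 654 and 642 CPM before it. Its changes were 0.47 ± 0.07 in knockout cells (adjusted p = 8.3e-06) and 0.43 ± 0.07 in control cells (adjusted p = 3.5e-05). RPL10, which joins the 60S subunit late in assembly, had 249, 248 and 289 CPM in knockout libraries after differentiation, against 199.9, 196 and 169 CPM before it, and 221, 271 and 202 CPM in control libraries after it, against 176, 166 and 159 CPM before it. Its change was 0.47 ± 0.10 in each genotype (adjusted p = 0.00051 in knockout and 0.00076 in control cells), but 55.5% of its exon bases overlap other entries, mainly DNASE1L1. RPL3 rose by 0.47 ± 0.11 in knockout cells (adjusted p = 0.0015) and by 0.33 ± 0.11 in control cells (adjusted p = 0.021), the second call being lost without control replicate 1 before differentiation (adjusted p = 0.0879) or control replicate 2 after it (adjusted p = 0.101), and with library sizes alone RPL3 was called in neither genotype. RPL12, RPL13 and RPS9 rose in both genotypes as well, by 0.21 to 0.43 with TMM scaling, but with library sizes alone none of these was called in knockout cells and RPL12 alone in control cells (0.36, adjusted p = 0.034). In control cells the call of RPL12 was lost without control replicate 3 before differentiation or 2 after it, and that of RPS9 without control replicate 1 or 3 before or 2 after it. The call of RPL13 was lost in control cells without control replicate 1 or 2 before or 2 or 3 after differentiation, and in knockout cells without knockout replicate 3 before or 1 or 3 after it.

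The strongest fall was that of RPL13A. It had 621, 609.8 and 564 CPM in knockout libraries after differentiation, against 1045, 939.6 and 918 CPM before it. In control libraries it had 488, 532 and 449 CPM after differentiation, against 909, 849 and 825 CPM before it. Libraries of the 2 stages were far apart in both genotypes. The changes were -0.69 ± 0.07 in knockout cells (1.62-fold lower, adjusted p = 7.4e-08) and -0.81 ± 0.07 in control cells (1.76-fold lower, adjusted p = 1.5e-08). RPL13A lies at chr19:49487554-49492308 and holds 4 snoRNA genes in its introns, SNORD32A, SNORD33, SNORD34 and SNORD35A.

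The size of that fall depended on the pseudogenes, which carried 391 counts for every 100 of RPL13A. With them added, the changes of RPL13A were -0.21 in knockout cells (adjusted p = 0.0095) and -0.29 in control cells (adjusted p = 0.00092). The entry RPL13AP5 alone held 263243 counts, more than RPL13A, and its own changes were -0.04 ± 0.08 in knockout and -0.16 ± 0.08 in control cells (adjusted p = 0.68 and 0.1). How reads that match both entries were assigned is not given in the sources used here.

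RPL23, RPSA and RPLP0 fell in both genotypes too. RPL23 fell by 0.64 ± 0.08 in knockout cells (1.56-fold lower, adjusted p = 4.9e-07) and dropped by 0.30 ± 0.08 in control cells (1.23-fold lower, adjusted p = 0.0032), from the values given above. RPSA had 238, 242 and 239 CPM in knockout libraries after differentiation, against 296, 299.6 and 277 CPM before it, and 190.3, 223 and 187 CPM in control libraries after it, against 269.7, 264 and 247 CPM before it. The groups were apart in both genotypes (-0.28 ± 0.07, adjusted p = 0.0016 in knockout; -0.38 ± 0.07, adjusted p = 0.00014 in control). RPLP0, the base of the stalk, had 1404, 1404 and 1362 CPM in knockout libraries after differentiation, against 1662, 1616 and 1446 CPM before it, and 1093, 1247 and 1049.7 CPM in control libraries after it, against 1505, 1488 and 1328 CPM before it. Its fall in control cells was -0.35 ± 0.07 (adjusted p = 0.00067), and in knockout cells it was -0.18 ± 0.07 (adjusted p = 0.046), a call lost without knockout replicate 1 or 2 or control replicate 1 or 2 before differentiation, and without any knockout library or control replicate 1 after it (adjusted p up to 0.185, without knockout replicate 1 before differentiation).

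With TMM scaling 8 members rose in both genotypes, which is 72.7% of the 11 risers in control cells and all 8 risers in knockout cells, and 13 fell in both, which is 86.7% of the 15 in control and 65% of the 20 in knockout cells. Over all genes tested, 78.9% of the risers in control cells rose in knockout cells too and 61.0% the other way round, and for fallers the shares were 80.9% and 65.4%. With library sizes alone 4 members rose in both genotypes, RPL10, RPL36, RPS27 and RPS27L, and 20 fell in both. No member was called in opposite directions with TMM scaling. The fallers shared were RPL13A, RPL15, RPL17, RPL21, RPL23, RPL27, RPL27A, RPL34, RPL39, RPL5, RPLP0, RPS13 and RPSA. Leaving out control replicate 2 after differentiation brought the risers in control cells to 5, and leaving out knockout replicate 1 before differentiation, control replicate 1 after it, or knockout replicate 1 or 3 after it brought the fallers in knockout cells to 12, 13, 13 and 12. Over the 4 comparisons 38 members were called in none and 1, RPL17, in all.

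**Figure D4:**
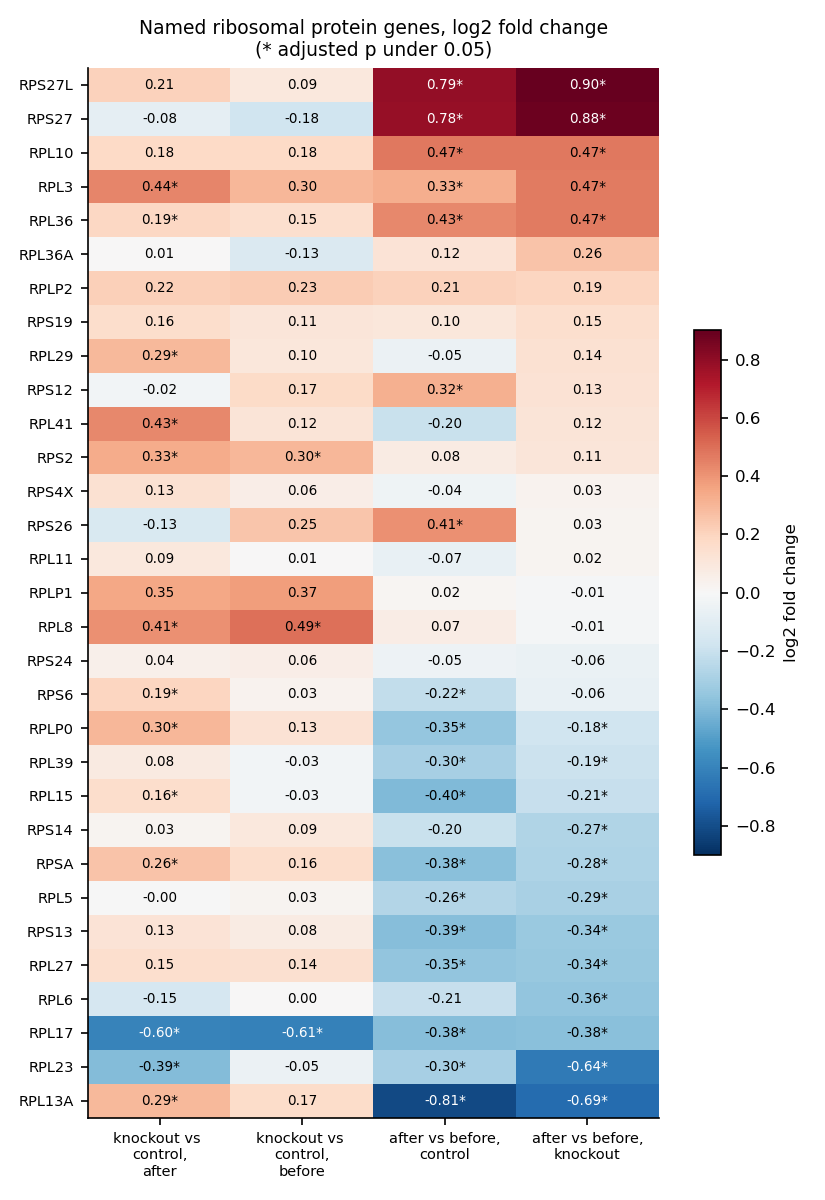
Log2 fold change (colour scale and printed value, TMM scaling) of 31 of the members named by a rule, rows ordered by their change in knockout cells, in 4 comparisons; an asterisk marks an adjusted p under 0.05. RPS27L and RPS27 top both differentiation columns, RPL13A and RPL23 are at the bottom of the knockout one, and RPL17 is called lower in all 4 columns; with library sizes alone the calls of higher members in the knockout columns are lost.

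By place in the ribosome, the stalk, which recruits elongation factors, was above 0 for all 4 of its members (RPLP0, RPLP1, RPLP2 and RPL12) in knockout against control cells at both stages with TMM scaling, with 1 called after differentiation, RPLP0 (0.30 ± 0.07, adjusted p = 0.0035; 0.14 and not called with library sizes alone). Most members lay on that side, 51 of all 78 after differentiation and 58 of 78 before it. RPLP1 had 387, 400.2 and 458 CPM in knockout and 302, 362 and 314 CPM in control libraries after differentiation (0.35 ± 0.14, adjusted p = 0.084). RPLP2 had 332, 352 and 394 CPM in knockout and 299, 336 and 292 CPM in control libraries (0.22 ± 0.10, adjusted p = 0.11). Both missed the threshold. With library sizes alone RPLP0, RPLP1 and RPLP2 were also above 0 after differentiation (0.14, 0.19 and 0.06), with none called. The value of RPL12 in that comparison with library sizes alone is not reported here.

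Of the 7 proteins along the mRNA path of the small subunit, 3 were higher in knockout cells after differentiation and 2 before it, and 0 were lower, again with TMM scaling and with 0 higher under library sizes alone (16.7% of all genes were called higher after differentiation and 9.18% before it). Of the 8 proteins at the tunnel exit, 0 were higher and 1 was lower at each stage, RPL17 both times, and 4 fell in knockout cells during differentiation, against 27.7% of all genes. The falls of RPL17, RPL19, RPL23A and RPL39 were lost without any 1 of 2, 8, 8 and 7 libraries. With pseudogene counts added RPL17 was not called and RPL23A turned round. RPL5 and RPL11, which form a particle with the 5S ribosomal RNA, were called in neither knockout comparison with TMM scaling. With library sizes alone RPL5 was called lower in knockout cells after differentiation (-0.16, adjusted p = 0.046). RPL5 had 641, 668 and 622 CPM in knockout libraries after differentiation, against 823, 778 and 764 CPM before it, and 634, 688 and 612 CPM in control libraries after it, against 809, 799.9 and 711 CPM before it. It fell by 0.29 ± 0.07 in knockout cells (adjusted p = 0.00084) and dropped by 0.26 ± 0.07 in control cells (adjusted p = 0.003). RPL11 was at 858 to 939.6 CPM in knockout and 816 to 903 CPM in control libraries after differentiation and was not called in any comparison with TMM scaling.

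Members linked to Diamond-Blackfan anemia numbered 19. Of these, 2 were higher and 0 lower in knockout cells after differentiation with TMM scaling (0 higher with library sizes alone), 0 were called before it, 2 rose and 3 fell in control cells, and 1 rose and 4 fell in knockout cells. As shares of the 19 these counts lie below those of all genes, 16.7% higher after differentiation, 21.4% and 22.4% rising and falling in control cells, and 27.7% each way in knockout cells. RPS19, the most often mutated of them, had 893, 841 and 875 CPM in knockout and 771, 839 and 728 CPM in control libraries after differentiation, and 818, 812 and 724 CPM in knockout and 744, 731 and 704 CPM in control libraries before it. Its log2 fold changes between knockout and control were 0.16 ± 0.07 (adjusted p = 0.076) and 0.11 ± 0.07 (adjusted p = 0.29). After differentiation the groups were apart, and the call passed without knockout replicate 2 or 3 before differentiation (adjusted p = 0.0484 and 0.05) or control replicate 2 after it (adjusted p = 0.033). RPS24 was not called (0.04 ± 0.08 after differentiation), with 797, 801 and 724 CPM in knockout and 745, 813 and 696 CPM in control libraries of that stage, which overlapped. RPS14 fell in knockout cells during differentiation (-0.27 ± 0.08, adjusted p = 0.0086). Its change in control cells was -0.20 ± 0.08 and just missed the threshold (adjusted p = 0.052). That change was called with library sizes alone (-0.25, adjusted p = 0.013). It also passed without knockout replicate 2 or 3 before differentiation (adjusted p = 0.0403 and 0.0359). The same held without control replicate 3 before differentiation (adjusted p = 0.0197) or control replicate 2 after it (adjusted p = 0.0072).

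RPS26, another of these genes and the member with the fewest counts, gave different values with its pseudogenes, which carried 285.5 counts for every 100 of its own. From the gene entry alone it had 15, 17 and 14.9 CPM in knockout and 14.6, 18.9 and 18 CPM in control libraries after differentiation, and 13.4, 15.9 and 17 CPM in knockout and 13.6, 12.3 and 12.9 CPM in control libraries before it. It rose in control cells (0.41 ± 0.12, adjusted p = 0.011), but with pseudogene counts added that change was 0.05 (adjusted p = 0.7), and the call was also lost without control replicate 2 before differentiation (adjusted p = 0.0549) or control replicate 2 after it (adjusted p = 0.0771). In knockout cells the change was 0.03 ± 0.13 (adjusted p = 0.88) from the gene entry and -0.38 (adjusted p = 0.00079) with pseudogenes.

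Adding the counts of each member's pseudogenes to its own left the knockout comparison after differentiation with all 16 of its calls and 6 more, 19 higher and 3 lower. Before differentiation 4 of 5 calls remained. In control cells 23 of 26 differentiation calls remained and 3 were lost. In knockout cells 20 of 28 remained, 7 were lost and 1, RPL23A, turned round, from -0.24 for the gene alone to 0.16 with its pseudogenes. Among the 26 members whose pseudogenes carried at least as many counts as the gene, 2 rose and 10 fell during differentiation of knockout cells, and among the 29 with fewer than 10 pseudogene counts per 100 there were 4 of each. Of all genes tested, 27.7% were called each way in that comparison. The pseudogenes themselves had 272 entries tested. Of these, 30 were higher and 7 lower in knockout cells after differentiation, and 3 higher and 5 lower before it. As shares of the 272, all of these counts lay below the shares of all genes. For all genes the shares were 16.7% higher and 16.5% lower after differentiation, and 9.18% and 8.33% before it. RPLP0P6 (0.43 ± 0.06, adjusted p = 2.5e-05), RPL3P4 (0.48 ± 0.06, adjusted p = 4.9e-06) and RPS2P5 (0.59 ± 0.17, adjusted p = 0.023) were higher after differentiation. Of the 30 entries called higher, 12 are named for a member called higher and 18 for a member not called, and 38 entries named for a member called higher were not called.

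**Figure D5:**
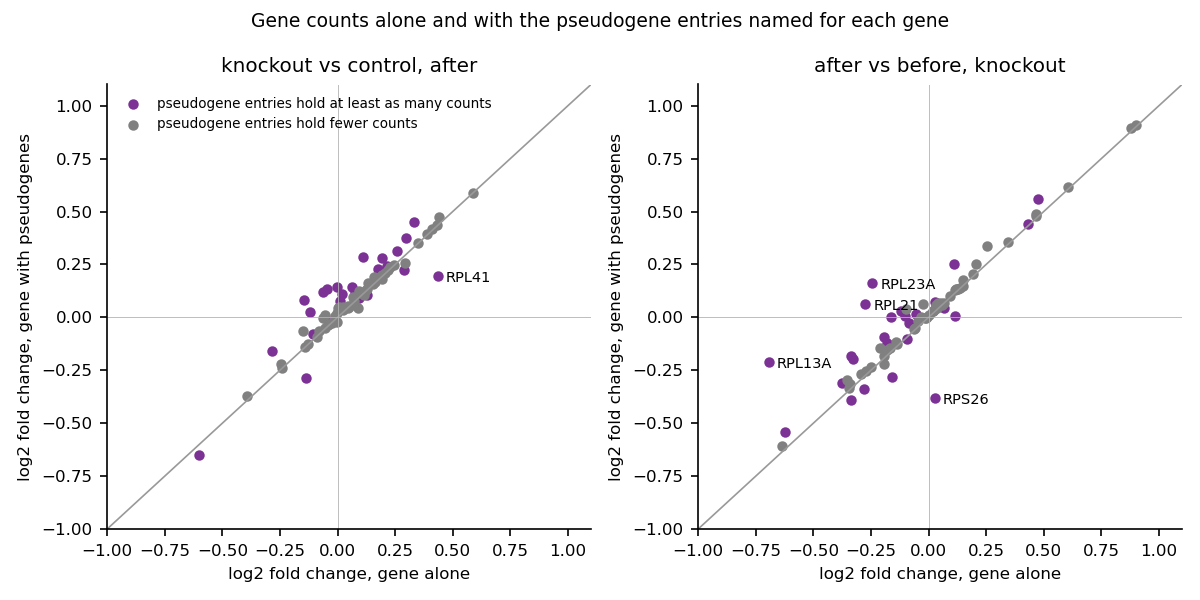
Log2 fold change of each of the 78 members from its own counts (x axis) and with the counts of the pseudogene entries named for it added (y axis), for knockout against control after differentiation (left) and after against before differentiation in knockout cells (right); the line marks equal values, and purple points are members whose pseudogenes carry at least as many counts. Most points lie near the line, and RPL13A (-0.69 and -0.21), RPS26 (0.03 and -0.38), RPL21 (-0.28 and 0.06) and RPL23A (-0.24 and 0.16) lie off it on the right.

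Of the 28 hosts, 5 were higher and 2 lower in knockout cells after differentiation, and 4 rose and 12 fell in knockout cells during it. Of the 50 other members, 9 were higher and 0 lower in knockout cells after differentiation, and 4 rose and 8 fell in knockout cells during it. Of all genes, 16.7% were called higher and 16.5% lower in the first of these comparisons and 27.7% each way in the second, all with TMM scaling. The median log2 fold changes of hosts and other members were 0.09 and 0.05 in the knockout comparison after differentiation and -0.05 and -0.01 for differentiation of knockout cells, and the difference was not tested. Small and large subunit members had the same median of 0.07 in the knockout comparison after differentiation, with 5 of 32 and 9 of 46 called higher.

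The other genes of the pathway were taken from lists chosen with earlier results of these data known. Their counts stand against 16.7% of all genes called higher and 16.5% called lower in knockout cells after differentiation, 9.18% and 8.33% before it, 21.4% and 22.4% rising and falling in control cells, and 27.7% each way in knockout cells. Of 7 further genes for cytosolic ribosomal proteins and their paralogs, 2 were higher in knockout cells after differentiation with TMM scaling and 0 with library sizes alone. One of them was FAU (0.25 ± 0.07, adjusted p = 0.011; 0.09 with library sizes alone), which encodes RPS30 as a fusion with ubiquitin-like sequence.

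Of 21 elongation factors and other TOP genes, 5 were higher and 0 lower in knockout cells after differentiation, 1 was higher before it, and during differentiation 3 rose and 8 fell in control cells and 5 rose and 10 fell in knockout cells. The knockout comparison after differentiation had 0 higher and 3 lower with library sizes alone. EEF2, which moves the ribosome along the mRNA, had 3577 to 4069 CPM in knockout and 2558 to 2842 CPM in control libraries after differentiation (0.50 ± 0.12, adjusted p = 0.0053; 0.34 and not called with library sizes alone). EEF1D, part of the factor that recharges EEF1A, was higher after differentiation (0.35 ± 0.08, adjusted p = 0.0018; not called with library sizes alone) and before it (0.46 ± 0.08, adjusted p = 0.00021; 0.43 and called with library sizes alone). NPM1, a nucleolar chaperone of ribosome assembly, fell by 0.69 ± 0.08 in knockout cells (adjusted p = 2e-07). EIF4B, an initiation factor with a TOP mRNA, fell in both genotypes (-0.45 ± 0.05 in knockout and -0.55 ± 0.05 in control cells, adjusted p = 5.9e-07 and 7.9e-08), while SNHG1, a snoRNA host with a TOP start, rose by 0.50 ± 0.06 in each.

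Of 28 initiation factors, 6 were higher and 3 lower in knockout cells after differentiation, and 7 higher and 0 lower before it. With library sizes alone these counts were 4 higher and 7 lower after differentiation and 5 higher and 0 lower before it. EIF1, which guards start codon choice, had 225.3 to 262.9 CPM in knockout and 162.4 to 177.3 CPM in control libraries after differentiation, and 111.2 to 133.2 CPM in knockout and 118.2 to 133.7 CPM in control libraries before it. It rose during differentiation by 0.98 ± 0.08 in knockout and 0.47 ± 0.08 in control cells, and its knockout effect differed between the stages by 0.51 ± 0.11 (adjusted p = 0.0036; 0.37 with library sizes alone, also called). EIF5 and EIF4G1, the scaffold of the cap complex, were higher in knockout cells after differentiation (0.49 ± 0.07 and 0.48 ± 0.07, adjusted p = 1.2e-05 and 1.7e-05; 0.34 and 0.33 with library sizes alone, also called). EIF3K and EIF3I, subunits of eIF3, fell in both genotypes, with changes of -0.61 ± 0.06 and -0.57 ± 0.07 in knockout and -0.56 ± 0.06 and -0.42 ± 0.06 in control cells.

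Of 22 ribosomal protein chaperones, TOP regulators and ribosome rescue factors, 3 were higher and 5 lower in knockout cells after differentiation, and 2 were higher and 0 lower before it (0 higher and 8 lower after it, and 2 higher and 1 lower before it, with library sizes alone). HBS1L and NEMF, which act on stalled ribosomes, were lower after differentiation (-0.34 ± 0.07 each, adjusted p = 0.00098 and 0.00099). HEATR3, which brings RPL5 to the nucleus, had 27.4 to 31.2 CPM in knockout and 35.9 to 37.3 CPM in control libraries after differentiation (-0.31 ± 0.08, adjusted p = 0.0045). It fell during differentiation, with changes of -0.83 ± 0.08 in knockout and -0.56 ± 0.07 in control cells. LTV1, a factor of 40S assembly, was lower in knockout cells after differentiation (-0.29 ± 0.09, adjusted p = 0.011) and higher before it (0.29 ± 0.08, adjusted p = 0.018), an effect that differed between the stages by -0.58 ± 0.12 (adjusted p = 0.0022).

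The proteins of the mitochondrial ribosome, also 78 genes, fell in larger number. During differentiation 2 rose and 53 fell in knockout cells, against 27.7% of all genes each way, with a median log2 fold change of -0.40. In control cells 3 rose and 40 fell, against 21.4% and 22.4% of all genes, with a median of -0.21. The difference from the cytosolic genes was not tested. Against control, 2 were higher and 15 lower in knockout cells after differentiation, and 13 higher and 2 lower before it. These were 0 higher and 42 lower after differentiation and 10 higher and 2 lower before it with library sizes alone. The knockout effect differed between the stages for 14 of them, all lower after differentiation, against 6.95% of all genes called lower in that test, and for 31, all lower, with library sizes alone (median -0.32, against -0.18 with TMM scaling). MRPL16 had 54.6 to 59.7 CPM in knockout and 83.3 to 91.9 CPM in control libraries after differentiation, and 150.6 to 164.1 CPM in knockout and 207.3 to 224 CPM in control libraries before it. It was lower in knockout cells at both stages (-0.63 ± 0.07, adjusted p = 3.1e-07, and -0.43 ± 0.06, adjusted p = 3.1e-05) and fell in both genotypes. MRPS26 had 14.4 to 17.2 CPM in knockout and 26.8 to 28.1 CPM in control libraries after differentiation (-0.80 ± 0.10, adjusted p = 2.1e-06), and its knockout effect differed between the stages by -0.69 ± 0.13 (adjusted p = 0.0013).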

How the data were processed

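RNA from 12 libraries in 4 groups was analysed. The deposited values are raw counts of read pairs per gene. Read pairs on exons were summed per gene by the authors with featureCounts 1.4.6-p4, using GENCODE release 22 on hg38 and no strand option, per the file headers. The submitters' processing notes name Trimmomatic, FastQC, Subread 1.6.2, featureCounts 1.2.6 and edgeR 3.18.1. How reads matching several places were treated is not given in the sources used here. Per the labels' protocols, the kit was stranded and depleted libraries of globin and ribosomal transcripts. Total counts per library ran from 7667997 to 14047498.

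Symbols came from GENCODE release 29, joined by identifier (56753 named, 3730 not). Counts were filtered with filterByExpr over the 4 groups, scaled with TMM and fitted with edgeR 4.0.16 in R 4.3.3 (glmQLFit, robust, all 12 libraries, two-sided F-test, Benjamini-Hochberg over 17175 genes, calls at 0.05). SE is the log2 fold change divided by the square root of F, and is not given for changes under 0.02. CPM are counts divided by the TMM-scaled library total, and CPM per kb uses the exon length in the deposited table. An exact two-sided permutation test of 3 libraries against 3 cannot go below 0.1 and was not used. The fit was tested on simulated data. Promoters on chromosome 8 were not used.

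The members and lists were chosen with earlier results of these data known. Named members were MBD2, paralog pairs, RPL17, stalk and 5S particle proteins, disease genes, RPSA, RPS4X, up to 4 called members per direction and comparison with the largest change and up to 2 more with the smallest adjusted p, and the 3 highest and 3 lowest per kb. From other lists up to 3 called genes per comparison were taken. RPS16, RPL28 and genes named for their pseudogenes were chosen after their values were seen. Replicates of a group differed by more than sampling noise. Alternatives were other scalings, DESeq2 1.42.0, no filter, other sets of libraries, a replicate block, no chromosome 18 genes and, chosen after seeing the data, counts with pseudogenes added. Results of some named genes are not reported here.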

Additional observations from a re-analysis of the deposited data

Results flagged for a closer look

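The knockout effect of RPL23 after differentiation minus that before it was -0.34 on the log2 scale, and this difference passed its own test (adjusted p = 0.039). RPL23 was called lower in knockout than in control cells after differentiation and not called before it. The call was lost without any 1 of 9 libraries (adjusted p up to 0.123), and it was not made when chromosome 18 genes were left out.

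Pseudogene entries named for the ribosomal protein genes, which the comparisons of the members do not use, carried 3651112 counts.

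RPL39L, a paralog of RPL39 known from male germ cells, fell under the count minimum with 78 counts in all. The libraries held 2, 1 and 1 counts in knockout and 4, 9 and 4 counts in control cells after differentiation, and 3, 7 and 2 counts in knockout and 13, 21 and 11 counts in control cells before it.

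RPL3L, a paralog of RPL3 known from heart and skeletal muscle, also fell under the minimum with 142 counts in all. The libraries held 25, 29 and 20 counts in knockout and 12, 14 and 9 counts in control cells after differentiation, and 8, 8 and 5 counts in knockout and 4, 4 and 4 counts in control cells before it. These counts are not scaled for library size, and test results of the paralogs are not reported here.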

How the results depend on the processing

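With library sizes alone, under which the median of all genes was -0.17 in place of -0.01 in the knockout comparison after differentiation, the knockout comparison called 0 members higher and 14 lower (median -0.088) after differentiation and 0 higher before it. Differentiation in knockout cells then called 4 higher and 38 lower (median -0.20), against 3387 higher and 6319 lower of all 17175 genes tested. The stage difference then called 4 lower (median -0.13), and RPL11 fell in knockout cells (-0.16, adjusted p = 0.028, from 0.02 and no call). The fit with a replicate block called 22 higher and 4 lower after differentiation, 8 higher before it and 1 higher for the stage difference. Same-numbered libraries had correlations of -0.018 to 0.25, and differently numbered ones of -0.25 to 0.18. Most same-numbered pairs lay above 0, and most differently numbered pairs lay below it. Not every library correlated best with its own number. The labels do not say whether same-numbered libraries share a culture or batch, and this was not tested. Without chromosome 18 genes, which include RPL17, 1 was lower after differentiation, 2 higher and 0 lower before it, and 0 lower for the stage difference. With only the groups compared, 0 were higher before differentiation. With pseudogenes added, the stage difference called 2 lower, and RPS26 in knockout cells was -0.38 (adjusted p = 0.00079). The members' share in knockout cells after differentiation was 3.90% outside ribosomal RNA, mitochondrial and globin genes. Without the 10 members with most counts the shares were 2.55% and 2.69% in knockout and control cells after differentiation, and 2.98% and 2.86% before it.

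Leaving out 1 library gave 5 to 19 members higher, 2 to 3 lower and a median of 0.02 to 0.13 after differentiation, and 0 to 7 higher, 1 lower and 0.00 to 0.12 before it. It gave 5 to 13 higher, 13 to 20 lower and -0.11 to 0.03 for differentiation of control cells, and 7 to 12 higher, 12 to 21 lower and -0.07 to -0.00 for that of knockout cells. The stage difference had 0 to 1 higher, 0 to 1 lower and -0.06 to 0.07. Shares were 3.72% to 3.81% and 3.73% to 4.01% in knockout and control cells after differentiation, and 4.27% to 4.47% and 4.06% to 4.20% before it. The cause of these changes was not tested.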
